A study of Mus musculus with 63 samples.

Results

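Nanog, Prdm14, Tcl1, Tfcp2l1, Esrrb, Klf2, Klf4, Klf5 and Tbx3 are genes of naive pluripotency, and their rows were read by symbol from the RNA-seq count tables of mouse embryonic stem (ES) and extended pluripotent stem (EPS) cells in which the transcription factor YY1 had been lowered or raised. These 9 genes were taken from the 47517 symbols of each table, and all of them were found in all 22 tables, which came from 22 of the 63 samples of the series. All 9 passed the filter on low counts in every fit. They are called naive pluripotency transcription factors here with 1 exception, Tcl1, whose product is a coactivator of the kinase AKT and binds no DNA.

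All cells were of the C57BL/6 strain. At day 6, samples titled F4H-D6, with F4H named in the protocols as a medium, came from EPS cells with a hairpin against Yy1 (EPS shYy1), EPS cells with a control hairpin (EPS shCtrl), ES cells with a Yy1 overexpression construct (ES oeYy1) and ES cells with its control (ES oeCtrl), 2 libraries each. The undifferentiated groups were the same 4 lines, 2 libraries each, with EPS and ES cells for which no construct is named, called parents here, 3 libraries each. EPS cells were kept in LCDM medium and ES cells in 2i medium, on mitotically inactivated fibroblast feeders or on Matrigel, and the labels do not say which library came from which. The number of clones or transductions per line is not stated, the day 6 controls are called only control in the genotype field, and their titles were followed for the construct. Nothing says whether the libraries of a group came from separate cultures, so p-values measure the spread between these libraries, which may be technical.

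Naive pluripotency is the state of the inner cell mass before implantation, and ES cells keep it when LIF acts through STAT3, when GSK3 inhibition relieves repression by TCF7L1, and when ERK signalling is blocked. The factors described here sit downstream of those signals and hold one another and Pou5f1 and Sox2 active. They are switched off as cells pass to the formative and primed states and into the lineages. YY1 is a zinc-finger protein that binds promoters and enhancers and can both activate and repress.

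The genes lie, by the RefSeq annotation of GRCm38.p6, on 7 chromosomes. Nanog, a homeodomain factor at the centre of the naive network, is at chr6:122707489-122714633. Prdm14, a PR-domain zinc-finger protein known to repress de novo DNA methyltransferase and FGF receptor genes in ES cells, is at chr1:13113428-13127163. Tfcp2l1, a grainyhead-like factor that acts downstream of LIF and of GSK3 inhibition, is at chr1:118627923-118685168. Esrrb, an orphan nuclear receptor released when TCF7L1 repression is lifted, is at chr12:86361117-86521628, and Tcl1 is on the same chromosome at chr12:105216753-105222737. The zinc-finger factors of the KLF family share a CACCC and GC box preference, with Klf2 at chr8:72319062-72321654, Klf4, a direct target of STAT3, at chr4:55527137-55532475, and Klf5 at chr14:99298691-99313412. Tbx3, a T-box factor that can sustain ES self-renewal and also acts in lineage entry, is at chr5:119670534-119684724.

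RefSeq promoter windows of GRCm38.p6, from 250 bases before to 50 bases after a gene start, were held for 6 of the 9 genes in 8 windows. Those of Nanog, Klf2 and Tcl1 are shown because Nanog and Tcl1 were called higher with the hairpin and Klf2 with the overexpression in undifferentiated cells, and a different motif is marked in each. The Nanog window (chr6:122707239-122707538, plus strand) has in capitals the composite OCT-SOX element, TTTGCAT followed by 1 free base and ACAANG. The Klf2 window (chr8:72318812-72319111, plus strand) has in capitals the YY1 core ATGGCG on either strand. The Tcl1 window (chr12:105222688-105222987, minus strand) has in capitals the KLF motif CCNCNCCC, which the other 2 windows also hold, unmarked.
Nanog: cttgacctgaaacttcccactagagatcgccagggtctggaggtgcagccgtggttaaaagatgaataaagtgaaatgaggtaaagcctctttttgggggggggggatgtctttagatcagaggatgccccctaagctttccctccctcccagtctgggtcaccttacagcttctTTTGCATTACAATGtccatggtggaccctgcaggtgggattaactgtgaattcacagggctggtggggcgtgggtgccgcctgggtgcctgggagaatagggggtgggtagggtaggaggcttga
Klf2: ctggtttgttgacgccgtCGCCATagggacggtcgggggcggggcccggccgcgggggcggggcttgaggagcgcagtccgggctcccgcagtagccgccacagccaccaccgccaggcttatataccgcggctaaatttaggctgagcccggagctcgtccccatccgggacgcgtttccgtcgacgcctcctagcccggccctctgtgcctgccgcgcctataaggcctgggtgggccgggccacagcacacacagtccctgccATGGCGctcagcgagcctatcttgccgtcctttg
Tcl1: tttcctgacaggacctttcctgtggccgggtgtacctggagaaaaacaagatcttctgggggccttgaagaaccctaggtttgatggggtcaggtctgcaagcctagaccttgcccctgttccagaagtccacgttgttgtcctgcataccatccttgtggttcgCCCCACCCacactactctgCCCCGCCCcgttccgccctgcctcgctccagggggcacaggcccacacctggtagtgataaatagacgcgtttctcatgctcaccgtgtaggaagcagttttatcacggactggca

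The OCT-SOX element begins 75 bases before the Nanog start, and among 32851 windows only 3 (0.00913%) hold it, of which 2 are overlapping windows of Nanog. That share is for this nearly fixed string, and looser forms of the element were not searched. The core ATGGCG was in 8.93% of all windows, and of the members only Klf2 has it, 232 bases before the start on the minus strand and 16 bases after the start on the plus strand. The longer YY1 motif AANATGGC, which overlaps the core in its letters, was in 6.05% of windows and in 0 of the 8 member windows. The KLF motif was in 49.5% of windows and in all 8 member windows, which belong to 6 members. The STAT motif TTCNNNGAA, which reads the same on both strands, was in 8.30% of windows and, of the members, in Esrrb only, and the TCF motif CTTTGA was in 16.0% and in none of them. All motifs were searched on both strands, and a match describes letters in this window.

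Libraries held 13672061 to 20782348 reads on genes, with 19687 to 22188 symbols above 0. Levels are CPM (a gene's reads relative to all gene reads of that library), which are not scaled to gene length, so levels are compared between libraries and not between genes. A gene with 0 reads in a library could still reach 0.144 to 0.219 CPM, taking 3 reads as the floor, and this covers counting error only. Fold changes are log2 values with standard errors (SE) from edgeR's quasi-likelihood fit, adjusted over all genes tested and called at an adjusted p under 0.05. Yy1 stood at 70.5 CPM in each EPS shYy1 library and at 134 CPM in each EPS shCtrl library, and at 934 and 941 CPM in ES oeYy1 against 120.4 and 124 CPM in ES oeCtrl. At day 6 it was 114 and 109.6 CPM in EPS shYy1 against 129 and 123 CPM in EPS shCtrl, lower in CPM without overlap. The edgeR fit, which also scales the libraries, gave log2 -0.033 ± 0.048 SE (adjusted p = 0.567). By that fit the libraries labelled as depleted did not differ in Yy1 beyond the spread at that stage, and each day 6 hairpin result below carries that limit. Yy1 was still raised on day 6 in ES oeYy1, at 331 and 324 CPM against 119.5 and 126 CPM in ES oeCtrl (log2 1.38). The pluripotency genes Pou5f1, Sox2 and Sall4 summed to 149.6 to 276 CPM in day 6 libraries and to 754 to 1207 CPM in undifferentiated ones. Sall4 was the largest part of the day 6 sum in each line, and the 3 genes fell unequally. In the construct lines, group means of Sall4 were 106 to 206 CPM on day 6 against 226 to 333 CPM undifferentiated. Those of Pou5f1 were 34.5 to 66.1 CPM against 158 to 270 CPM, and those of Sox2 11.1 to 37.1 CPM against 362 to 471 CPM. In bulk RNA, fewer cells of a type and less RNA per cell cannot be told apart.

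**Figure D1:**
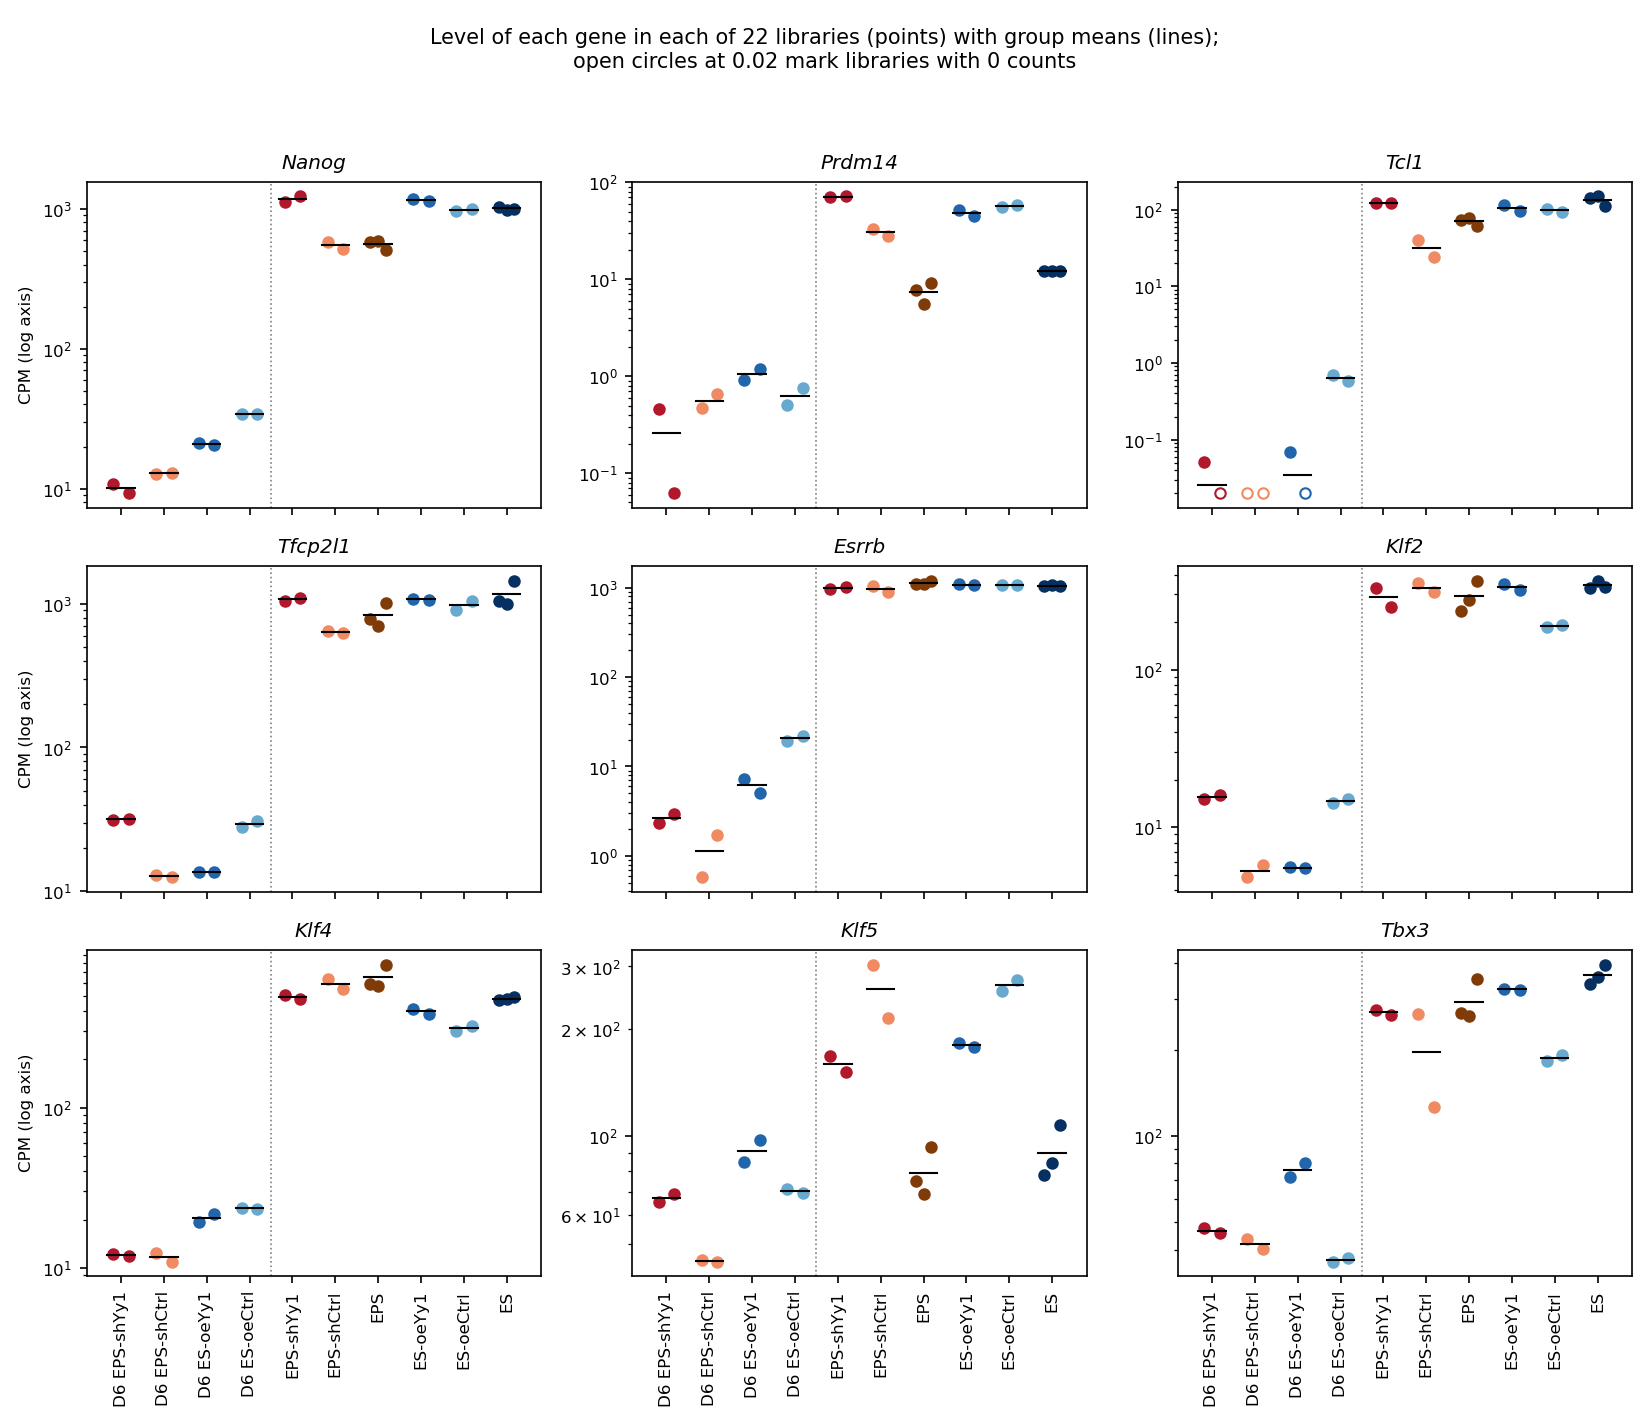
Level of each gene in CPM (log axis, own scale per gene) in every library of the 10 groups, with points for libraries and lines for group means. All genes but Klf5 have every day 6 library below every undifferentiated library, and Prdm14 spans the widest range among undifferentiated groups.

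Among undifferentiated cells the members differed in how much they varied. Esrrb was the steadiest, with group means between 967 and 1135 CPM, a 1.17-fold span. Klf2, Tfcp2l1, Tbx3, Klf4 and Nanog spanned 1.81-, 1.83-, 1.95-, 2.08- and 2.15-fold between their lowest and highest groups. Klf5 spanned 3.36-fold, Tcl1 4.21-fold and Prdm14 9.55-fold, with 71.4 ± 0.527 CPM in EPS shYy1 and 7.48 ± 1.80 CPM in EPS cells at its ends (SD, n = 2 and 3). In the order of Nanog levels, EPS shYy1 and ES oeYy1 led and overlapped, ES and ES oeCtrl followed and overlapped, and EPS and EPS shCtrl came last and overlapped. For Prdm14 no undifferentiated neighbours in the order overlapped, which ran EPS shYy1, ES oeCtrl, ES oeYy1, EPS shCtrl, ES and EPS. Klf5 fell into 2 levels, with all 8 libraries of the construct lines between 152 and 303 CPM and all 6 parent libraries between 69.1 and 108 CPM. Over the 6 undifferentiated group means Tfcp2l1 and Tcl1 followed each other most closely (Pearson r = 0.99), with Nanog near Tfcp2l1 (r = 0.89) and Tcl1 (r = 0.85), while Klf5 ran with Prdm14 (r = 0.80) and against Tbx3 (r = -0.80). These r describe 6 means from groups that share a line and a fit, and carry no test.

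EPS cells against ES cells shows the members in the parents. Nanog, Prdm14, Tcl1 and Tfcp2l1 were lower in EPS cells and Klf4 was higher. Of the 9 genes 1 was called higher and 4 lower, where 13.8% of all 16440 genes tested were called higher and 16.9% lower. The median log2 fold change of the 9 was -0.25, against -0.0046 over all genes.

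Nanog had 581, 593 and 505 CPM in EPS cells and 1029, 989 and 1003 CPM in ES cells, with no overlap (log2 -0.78 ± 0.10 SE, adjusted p = 2.42e-05). Genes on chromosome 6, where Nanog lies, had a median log2 fold change of -0.29 in this comparison, as had those on chromosome 8 (-0.28), and the part of this shift in the Nanog value was not tested. Prdm14 stood at 7.70, 5.58 and 9.15 CPM in EPS cells against 12.3, 12.2 and 12.2 CPM in ES cells (log2 -0.66 ± 0.14, adjusted p = 0.00180). Tcl1 was 73.5, 79.3 and 61.3 CPM in EPS cells against 145, 149.7 and 110.5 CPM in ES cells (log2 -0.85 ± 0.16). These 3 genes separate the parents in every library.

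Tfcp2l1 did not separate them: its 781, 697 and 1011 CPM in EPS cells overlapped the 1047, 993 and 1450.4 CPM in ES cells. It was called (log2 -0.43, adjusted p = 0.0182), and the call was lost without EPS replicate 1, EPS replicate 2 or ES replicate 3, or when only these 6 libraries were fitted, with adjusted p between 0.000302 and 0.0953 over 12 alternatives. Klf4, the STAT3 target, was higher, at 593, 578 and 778 CPM in EPS cells against 468, 474 and 490.0 CPM in ES cells (log2 0.50 ± 0.10, adjusted p = 0.000737). Klf2 (log2 -0.17), Klf5 (-0.12), Esrrb (0.17) and Tbx3 (-0.25) were not called. Without EPS replicate 3, Klf2 passed at log2 -0.31 (adjusted p = 0.0483; over 12 alternatives 0.0483 to 0.772). Esrrb, whose EPS and ES libraries did not overlap, passed with DESeq2 (log2 0.19, adjusted p = 0.0185; 0.0185 to 0.361). The summed level of 12 fibroblast markers was 266 to 814 CPM in EPS cells and 2246 to 4072 CPM in ES cells, with none of the 12 at 0 in either group, and its part in these differences was not tested.

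**Figure D2:**
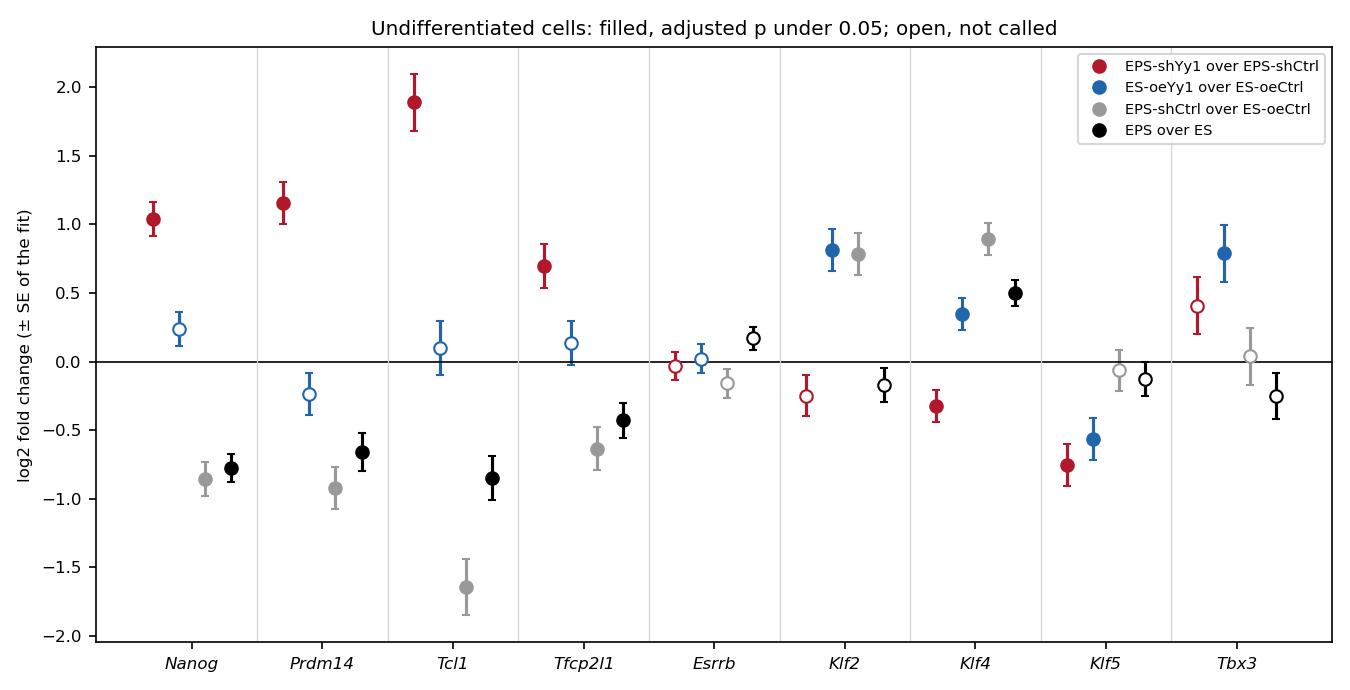
Log2 fold change with its SE from the fit for each gene in 4 comparisons of undifferentiated cells, filled where called. Nanog, Prdm14, Tcl1 and Tfcp2l1 lie above 0 for the hairpin and below 0 for EPS over ES and for EPS shCtrl over ES oeCtrl, and the grey and red points share the EPS shCtrl libraries.

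In undifferentiated EPS cells with the hairpin, Nanog, Prdm14, Tcl1 and Tfcp2l1 were higher than in the control line, and Klf5 and, narrowly, Klf4 were lower. Of the 9 genes 4 were called higher and 2 lower, where 15.1% of 16440 genes were called higher and 13.3% lower. The 4 that were higher are those called lower in EPS relative to ES cells, a comparison that shares no library with this one. The median of the 9 was log2 0.41, against -0.013 over all genes.

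Tcl1 had 124 and 123 CPM in EPS shYy1 against 39.9 and 24.2 CPM in EPS shCtrl cells, and rose most of the members (log2 1.89 ± 0.21 SE, adjusted p = 6.41e-06). Prdm14 was 71.0 and 71.8 CPM in EPS shYy1 against 33.0 and 28.3 CPM in EPS shCtrl cells (log2 1.16 ± 0.15, adjusted p = 3.43e-05). Nanog was 1129 and 1228 CPM in EPS shYy1 against 579.7 and 517 CPM in EPS shCtrl cells (log2 1.04 ± 0.13, adjusted p = 1.33e-05). The Nanog libraries with the hairpin stood above every parent ES library too. Tfcp2l1 was 1050.0 and 1105 CPM in EPS shYy1 against 643 and 629 CPM in EPS shCtrl cells (log2 0.70 ± 0.16, adjusted p = 0.00360).

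Klf5, a KLF factor of the blastocyst, fell to 168 and 152 CPM in EPS shYy1 against 303 and 215 CPM in EPS shCtrl cells (log2 -0.75 ± 0.15, adjusted p = 0.00133). Klf4 had 506 and 479 CPM in EPS shYy1 against 635 and 547 CPM in EPS shCtrl cells (log2 -0.32, adjusted p = 0.0473). That call held in 2 of 10 alternatives and was lost on leaving out any 1 of the 4 libraries, with adjusted p between 0.0245 and 0.223. Esrrb was not called, at 967 and 1006 CPM in EPS shYy1 against 1039 and 896 CPM in EPS shCtrl cells (log2 -0.033), nor was Klf2 (log2 -0.25). Tbx3 was 275 and 264 CPM in EPS shYy1 cells, while the EPS shCtrl libraries disagreed with each other at 267 and 126 CPM (log2 0.41, adjusted p = 0.159). Without EPS shCtrl replicate 1 it was called higher (log2 0.98, adjusted p = 0.000141), as in 2 others of 10 alternatives (0.000141 to 0.984). The fibroblast marker sum was 41.9 to 51.3 CPM in EPS shYy1 and 17.9 to 31.8 CPM in EPS shCtrl cells, and its part in these differences was not tested.

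Overexpression of Yy1 in undifferentiated ES cells went with calls for 4 members. Klf2, Tbx3 and, narrowly, Klf4 were higher and Klf5 was lower in ES oeYy1 than in ES oeCtrl cells, and none of Nanog, Prdm14, Tcl1, Tfcp2l1 and Esrrb was called. Of the 9 genes 3 were called higher and 1 lower, where 14.8% of genes were called higher and 17.1% lower. The median of the 9 was log2 0.14, against 0.012 over all genes.

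Klf2 was 350.2 and 319 CPM in ES oeYy1 against 187 and 192 CPM in ES oeCtrl cells (log2 0.82 ± 0.15 SE, adjusted p = 0.000591). Tbx3 was 326 and 323 CPM in ES oeYy1 against 182 and 191 CPM in ES oeCtrl cells (log2 0.79 ± 0.21, adjusted p = 0.00864). Klf5 had 183 and 178 CPM in ES oeYy1 against 256 and 275 CPM in ES oeCtrl cells (log2 -0.56 ± 0.15, adjusted p = 0.00811). In each of these 3 genes the ES oeYy1 libraries did not overlap the ES oeCtrl libraries. The Tbx3 call was lost without ES oeCtrl replicate 1 (adjusted p = 0.0706; 2.56e-08 to 0.0706 over 10 alternatives), and the Klf5 call without ES oeYy1 replicate 2 or ES oeCtrl replicate 2 (2.15e-06 to 0.0693).

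Klf4 was 415 and 385 CPM in ES oeYy1 against 303 and 323 CPM in ES oeCtrl cells (log2 0.35, adjusted p = 0.0313), a call that held in 5 of 10 alternatives and was lost on leaving out any 1 of the 4 libraries (0.000206 to 0.220). With 1 library left out, 2 to 3 members were called in place of 4. Nanog was 1184 and 1132 CPM in ES oeYy1 against 964 and 997 CPM in ES oeCtrl cells, without overlap and not called (log2 0.24, adjusted p = 0.163), but it passed when only these 4 libraries were fitted (adjusted p = 0.00195; 0.00195 to 0.451 over 10 alternatives). Prdm14 passed in that fit as well (log2 -0.23, adjusted p = 0.0368; 0.0368 to 0.688). The fibroblast marker sum was 26.6 to 27.6 CPM in ES oeYy1 and 8.80 to 8.82 CPM in ES oeCtrl cells, and its part was not tested. Klf5 was the member lower with the hairpin and also lower with the overexpression, against 2 different control lines.

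The control lines were set against their parents in 2 comparisons added after the levels had been seen. In both, Klf5 and Prdm14 were higher in the control line than in its parent, and Tcl1, Tbx3 and Klf4 were lower, Klf4 only narrowly in EPS shCtrl cells. EPS shCtrl over EPS cells had 2 members called higher and 5 lower, where 28.9% and 27.4% of genes were called. ES oeCtrl over ES cells had 2 higher and 4 lower, where 25.5% and 25.1% were called.

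Prdm14 was 33.0 and 28.3 CPM in EPS shCtrl against 7.70, 5.58 and 9.15 CPM in EPS cells (log2 1.91 ± 0.15 SE), and 55.8 and 58.3 CPM in ES oeCtrl against 12.3, 12.2 and 12.2 CPM in ES cells (log2 2.17 ± 0.14). Klf5 was 303 and 215 CPM in EPS shCtrl against 74.9, 69.1 and 93.4 CPM in EPS cells (log2 1.58 ± 0.14), and 256 and 275 CPM in ES oeCtrl against 77.8, 84.4 and 108 CPM in ES cells (log2 1.51 ± 0.14). No control library overlapped its parent for these genes. Tcl1 fell in EPS shCtrl relative to EPS cells (log2 -1.31) and in ES oeCtrl relative to ES cells (log2 -0.51), where the second call was lost without ES replicate 1, ES replicate 2 or either ES oeCtrl library (adjusted p 0.000317 to 0.133 over 11 alternatives).

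Tbx3 fell in both control lines (log2 -0.73 in EPS shCtrl and -1.02 in ES oeCtrl), but without EPS shCtrl replicate 2 the EPS value was -0.32 and not called (adjusted p = 0.0582; 3.42e-08 to 0.0582 over 11 alternatives). Klf2 fell in ES oeCtrl relative to ES cells (log2 -0.91 ± 0.14), where genes on its chromosome 8 had a median of 0.37, and did not pass in EPS shCtrl relative to EPS cells (log2 0.046). Klf4 fell in ES oeCtrl (log2 -0.66 ± 0.11). In EPS shCtrl it was log2 -0.27, a call that held in 5 of 11 alternatives and was lost without EPS replicate 3 or either EPS shCtrl library (0.0121 to 0.202). For both Tbx3 and Klf4 the EPS shCtrl libraries overlapped the EPS libraries. Esrrb (log2 -0.37) and Tfcp2l1 (log2 -0.51) fell in EPS shCtrl and were not called in ES oeCtrl cells (log2 -0.039 and -0.30). Without ES replicate 2 Tfcp2l1 passed there (log2 -0.40, adjusted p = 0.0413), as in 1 other alternative (0.0395 to 0.470). Nanog was called in neither (log2 -0.17 and -0.092), except in EPS shCtrl without EPS replicate 3 (log2 -0.28, adjusted p = 0.02002) and in 1 other of 11 alternatives (0.02002 to 0.483). The fibroblast marker sum was 17.9 to 31.8 CPM in EPS shCtrl against 266 to 814 CPM in EPS cells, with Lum at 0 in EPS shCtrl, and 8.80 to 8.82 CPM in ES oeCtrl against 2246 to 4072 CPM in ES cells. Its part in these differences was not tested.

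**Figure D3:**
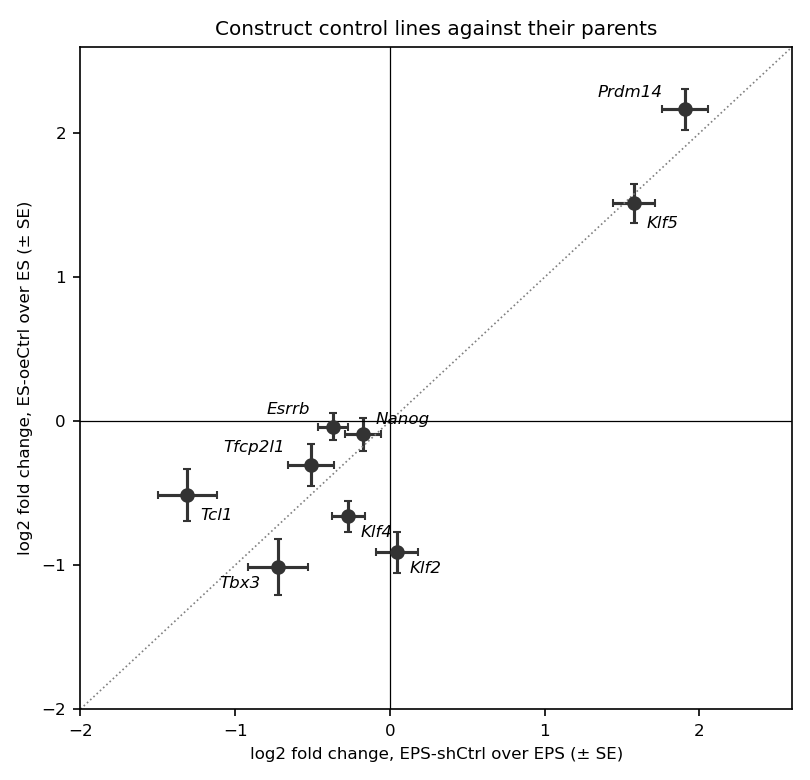
Log2 fold change of each gene in EPS shCtrl over EPS cells (horizontal) and in ES oeCtrl over ES cells (vertical), with SE bars and a dotted line of equality. Prdm14 and Klf5 lie far above 0 on both axes, Tcl1 is lower on the EPS axis, and Klf2 is low on the ES axis only.

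The EPS shCtrl and ES oeCtrl lines differ in cell type, in medium (LCDM and 2i) and in construct at once, which cannot be told apart. Of the 9 genes 2 were called higher in EPS shCtrl and 4 lower, where 19.7% of genes were called higher and 20.7% lower. Nanog (log2 -0.86 ± 0.12), Prdm14 (-0.92 ± 0.15), Tcl1 (-1.64 ± 0.21) and Tfcp2l1 (-0.63 ± 0.16) were lower in EPS shCtrl than in ES oeCtrl cells, and this comparison shares the EPS shCtrl libraries with the hairpin comparison. The Tfcp2l1 call was lost without ES oeCtrl replicate 2 (adjusted p = 0.0621; 9.23e-06 to 0.0621 over 10 alternatives). Klf4 (log2 0.90 ± 0.12) and Klf2 (log2 0.78 ± 0.15) were higher in EPS shCtrl, and the median of the chromosomes of Nanog and Klf2 was -0.44 each. Klf5 (log2 -0.061) and Esrrb (log2 -0.16, with groups that did not overlap) were not called. Tbx3 was not called either (log2 0.040), with -0.53 without EPS shCtrl replicate 1 and 0.45 without EPS shCtrl replicate 2, both called (adjusted p 0.00788 to 1.00 over 10 alternatives).

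By day 6 every member had fallen in all 4 lines relative to the undifferentiated cells of the same line, in 9 of 9 genes each. Among 17207 genes tested, 37.4% fell in EPS shYy1, 36.6% in EPS shCtrl, 36.9% in ES oeYy1 and 35.9% in ES oeCtrl cells. The genes called higher came to 37.9%, 37.5%, 35.7% and 37.1% of all in the same 4 lines, with no member among them. The median of the 9 was log2 -5.30 in EPS shYy1, -5.80 in EPS shCtrl, -5.86 in ES oeYy1 and -4.85 in ES oeCtrl cells, against medians between -0.026 and 0.034 over all genes. The members fell unequally, and the share of the undifferentiated mean CPM that remained is given as percent kept.

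Klf5 and Tbx3 kept most. Klf5 kept 17.2 to 50.5% over the 4 lines, with 65.5 and 69.1 CPM on day 6 against 168 and 152 CPM undifferentiated in EPS shYy1 cells, and 84.5 and 97.6 CPM against 183 and 178 CPM in ES oeYy1 cells. Its day 6 level in ES oeYy1 cells overlapped that of parent ES cells. Tbx3 kept 17.3 to 23.4%. Klf5 fell least in ES oeYy1 (log2 -1.05 ± 0.10) and most in EPS shCtrl cells (log2 -2.67 ± 0.11), and Tbx3 fell in all lines by between log2 -2.16 and -2.48. Without EPS shCtrl replicate 1 the Tbx3 value of that line was -1.74.

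Klf2 kept 1.60 to 7.73%, Klf4 1.98 to 7.51%, Nanog 0.853 to 3.47% and Tfcp2l1 1.27 to 3.01%. Nanog kept least in EPS shYy1 cells, at 10.8 and 9.31 CPM on day 6 against 1129 and 1228 CPM undifferentiated, and most in ES oeCtrl cells, at 34.0 CPM in each library against 964 and 997 CPM. Prdm14 kept 0.365 to 2.15% from day 6 counts of 10 to 30 reads a group. Leaving out 1 library moved its value in EPS shYy1 cells (log2 -7.90) to between -9.93 and -7.19.

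Esrrb, the member with the smallest span in undifferentiated cells, kept only 0.118 to 1.94%. It was 0.576 and 1.71 CPM on day 6 against 1039 and 896 CPM undifferentiated in EPS shCtrl cells (log2 -9.84 ± 0.20, and -10.84 without day 6 EPS shCtrl replicate 2), and 19.3 and 22.04 CPM against 1061 and 1068 CPM in ES oeCtrl cells (log2 -5.69 ± 0.14). Tcl1 was nearly undetectable on day 6, with 1 read over both EPS shYy1 libraries, 0 reads in both EPS shCtrl libraries, 1 read over both ES oeYy1 libraries and 24 reads over both ES oeCtrl libraries. In EPS shCtrl cells it was thus at least 208-fold lower on day 6, with the floor at 3 reads per library. From single reads, the undifferentiated to day 6 ratio was 4396 (788 to 173671, 95% counting interval) in EPS shYy1 and 3041 (545 to 120166) in ES oeYy1 cells. The fibroblast marker sum was 426 to 609 CPM on day 6 against 8.80 to 51.3 CPM in the same lines undifferentiated. That of 3 mesendoderm markers was 142 to 493 CPM against 4.41 to 13.0 CPM. Of these, T and Mixl1 were called higher in every line. Gsc was called lower in EPS shYy1 (log2 -0.96) and ES oeCtrl cells (-1.29) and higher in EPS shCtrl (3.82) and ES oeYy1 cells (0.66). The part of either sum in these falls was not tested.

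**Figure D4:**
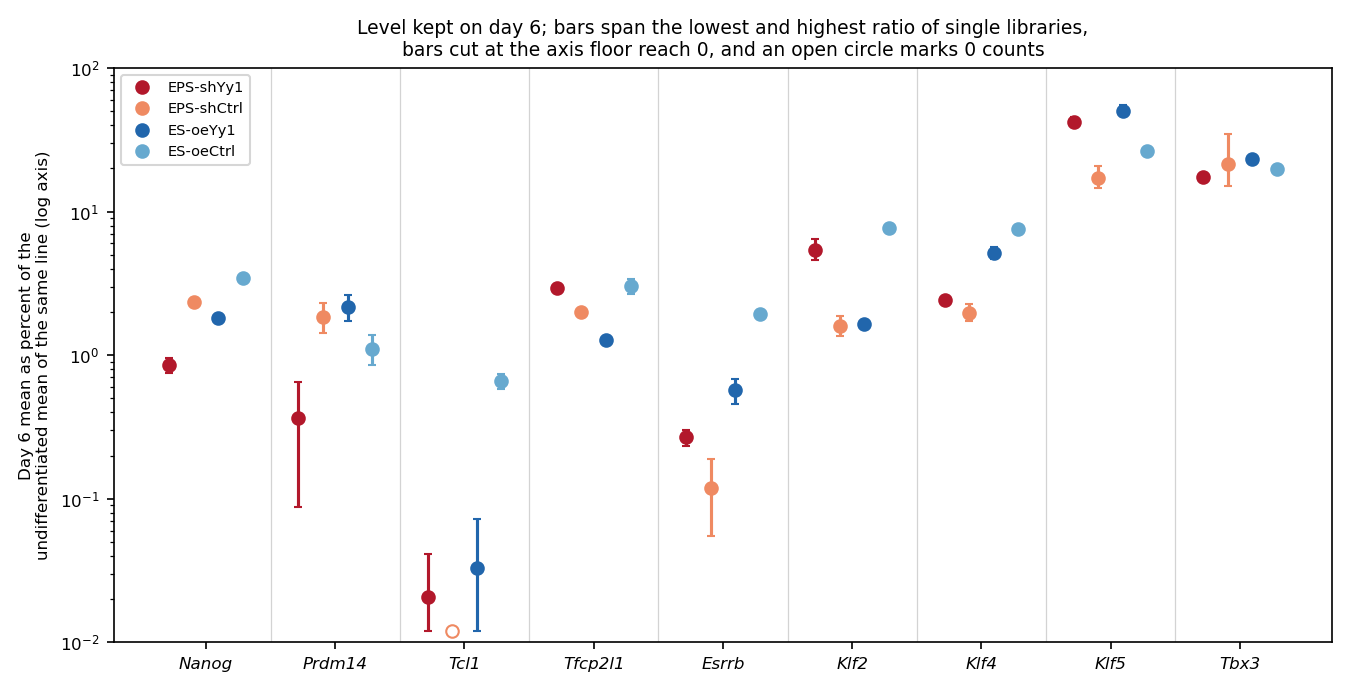
Day 6 mean CPM as a percentage of the undifferentiated mean of the same line (log axis), for each gene and line, with bars from the lowest to the highest ratio of single libraries. Klf5 and Tbx3 keep at least 17.2%, Esrrb at most 1.94%, and Tcl1 in EPS shCtrl cells is at 0 counts.

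Within day 6, the hairpin line had more Klf2, Tfcp2l1, Esrrb, Klf5 and Tbx3 than its control. Of the 9 genes 5 were called higher and 0 lower in EPS shYy1, where 30.9% of 15927 genes were called higher and 30.4% lower. At an unadjusted p under 0.05 in edgeR the number lower was 0 as well, and DESeq2 called 5 members, the same 5 as higher. The median of the 9 was log2 0.72, against -0.013 over all genes. These are differences between low levels for all but Klf5 and Tbx3.

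Klf2 was 15.1 and 16.1 CPM in day 6 EPS shYy1 against 4.81 and 5.79 CPM in day 6 EPS shCtrl cells (log2 1.69 ± 0.14 SE, adjusted p = 2.00e-16). Tfcp2l1 was 31.4 and 31.9 CPM in EPS shYy1 against 13.0 and 12.5 CPM in EPS shCtrl cells (log2 1.45 ± 0.10, adjusted p = 2.76e-20). Klf5 was 65.5 and 69.1 CPM in EPS shYy1 against 44.8 and 44.5 CPM in EPS shCtrl cells (log2 0.72 ± 0.065). Each of these had EPS shYy1 libraries clear of the controls.

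Esrrb was 2.34 and 2.94 CPM in EPS shYy1 against 0.576 and 1.71 CPM in EPS shCtrl cells (log2 1.31 ± 0.32, adjusted p = 0.000557). It stayed called in each fit with 1 library left out, at log2 0.74 without EPS shCtrl replicate 1 and 2.301 without EPS shCtrl replicate 2. Tbx3 was 47.5 and 45.8 CPM in EPS shYy1 against 43.6 and 40.2 CPM in EPS shCtrl cells (log2 0.29 ± 0.071). Nanog (log2 -0.21, adjusted p = 0.104) and Klf4 (log2 0.18) were not called. Prdm14 was not called (log2 -0.87) at 0.459 and 0.0625 CPM in EPS shYy1 against 0.471 and 0.654 CPM in EPS shCtrl cells, though it passed without EPS shYy1 replicate 1 (log2 -2.91, adjusted p = 0.0360; 0.0360 to 0.871 over 9 alternatives). Tcl1 with 1 read against 0 allowed no fold. Lineage markers moved too, with 8 primitive endoderm markers summing to 139.5 to 140.3 CPM in EPS shYy1 and 282 to 286 CPM in EPS shCtrl cells, 3 mesendoderm markers to 142 to 152 CPM in EPS shYy1 and 275 to 276 CPM in EPS shCtrl cells, and 4 neuroectoderm markers to at least 305 CPM in EPS shYy1 and at most 105 CPM in EPS shCtrl cells. Of the primitive endoderm markers 6 were called lower and 1 higher. Of the mesendoderm markers T and Gsc were called lower, and Mixl1 higher at 35.4 CPM in EPS shYy1 against 17.6 CPM in EPS shCtrl cells. The neuroectoderm sum was mostly Nes and Tubb3, both called higher. Sox1 averaged 0.139 CPM in EPS shYy1 and 0.127 CPM in EPS shCtrl cells, and Pax6 1.71 and 1.80 CPM. None of the 3 lists had a gene at 0. Their part in these differences was not tested.

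The overexpression line on day 6 had less Nanog, Klf2, Esrrb, Tfcp2l1 and Tcl1 and more Tbx3 and Klf5 than its control. Of the 9 genes 2 were called higher and 5 lower in ES oeYy1, where 20.3% of genes were called higher and 21.6% lower. The median of the 9 was log2 -0.74, against 0.00028 over all genes.

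Esrrb was 7.25 and 5.08 CPM in day 6 ES oeYy1 against 19.3 and 22.04 CPM in day 6 ES oeCtrl cells (log2 -1.78 ± 0.17 SE, adjusted p = 1.07e-10). Klf2 was 5.57 and 5.50 CPM in ES oeYy1 against 14.2 and 15.1 CPM in ES oeCtrl cells (log2 -1.44 ± 0.15). Tfcp2l1 was 13.7 and 13.6 CPM in ES oeYy1 against 28.0 and 30.7 CPM in ES oeCtrl cells (log2 -1.15 ± 0.10). Nanog was 21.4 and 20.4 CPM in ES oeYy1 against 34.0 CPM in each ES oeCtrl library (log2 -0.74 ± 0.094). For Klf2, Tfcp2l1 and Esrrb the overexpression and the hairpin gave calls of opposite sign on day 6, between groups that share no library.

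Tbx3 was 71.9 and 80.1 CPM in ES oeYy1 against 36.4 and 37.4 CPM in ES oeCtrl cells (log2 1.00 ± 0.071, adjusted p = 2.93e-18). Klf5 was 84.5 and 97.6 CPM in ES oeYy1 against 71.0 and 69.2 CPM in ES oeCtrl cells (log2 0.34 ± 0.062). These 2 genes were called higher with the hairpin and with the overexpression alike. Tcl1 had 1 read in ES oeYy1 and 24 reads in ES oeCtrl cells, an ES oeCtrl to ES oeYy1 ratio of 18.7 (95% counting interval 3.05 to 768). That call was lost without ES oeYy1 replicate 2 (adjusted p = 0.0622; 0.00160 to 0.0622 over 7 alternatives). Klf4 was not called (log2 -0.24, adjusted p = 0.0552), except without ES oeYy1 replicate 2 (log2 -0.33, adjusted p = 0.0375) and in 1 other of its 10 alternatives (0.0375 to 0.378), nor was Prdm14 (log2 0.69). The mesendoderm markers summed to 445 to 493 CPM in ES oeYy1 and 272 to 279 CPM in ES oeCtrl cells, and the neuroectoderm markers to 297 to 302 CPM in ES oeYy1 and 395 to 402 CPM in ES oeCtrl cells. The neuroectoderm sum was mostly Nes and Tubb3, both called lower (log2 -0.32 and -1.23). Sox1 averaged 0.139 CPM in ES oeYy1 and 0.385 CPM in ES oeCtrl cells, and Pax6 0.627 and 0.768 CPM. The part of these sums was not tested.

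**Figure D5:**
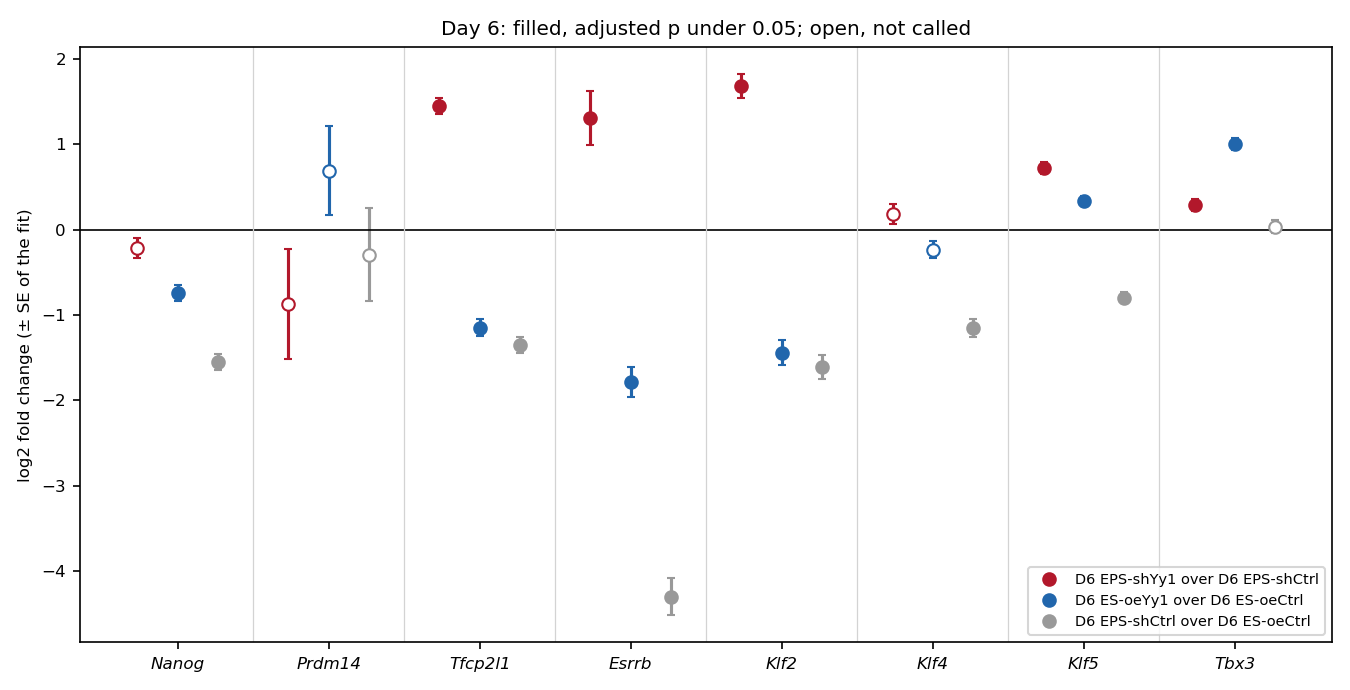
Log2 fold change with SE for 8 genes in 3 comparisons of day 6 cells, filled where called, with Tcl1 left out for its low counts. Klf2, Tfcp2l1 and Esrrb are above 0 for the hairpin and below 0 for the overexpression, Klf5 and Tbx3 are above 0 for both, and Esrrb is lowest for EPS shCtrl over ES oeCtrl.

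Between the day 6 controls, 0 members were called higher and 7 lower in EPS shCtrl than in ES oeCtrl cells, where 31.6% of genes were called higher and 32.4% lower. These controls too differ in cell type, in the medium of their undifferentiated cells and in construct. Esrrb was lower by the most among members with reads in both groups (log2 -4.30 ± 0.22, and -5.30 without EPS shCtrl replicate 2), with Klf2 (log2 -1.61), Nanog (-1.55), Tfcp2l1 (-1.35), Klf4 (-1.16) and Klf5 (-0.80) also lower. Tcl1 was at least 4.20-fold lower, from 0 against 24 reads. Genes on chromosomes 6 and 8 had medians of -0.34 and -0.42. Tbx3 (log2 0.036) and Prdm14 (log2 -0.30) were not called, and in no member was the unadjusted p of a higher value under 0.05 in edgeR. DESeq2 called the same 7 lower. Klf2 and Klf4 were thus lower in EPS shCtrl on day 6, while in undifferentiated cells they were higher there.

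How the hairpin and the overexpression effects changed between the stages was tested as an interaction each, in 1 fit of the 16 libraries of the construct lines. With the hairpin, Yy1 itself was lower in undifferentiated cells (log2 -0.99) and by the fit did not differ beyond the spread on day 6 (log2 -0.033). The hairpin effect was called higher on day 6 than undifferentiated for 5 members and lower for 2, where 21.4% and 20.1% of genes were called. Klf2 (log2 1.93 ± 0.17 SE), Klf5 (1.47 ± 0.14), Esrrb (1.33 ± 0.33), Tfcp2l1 (0.74 ± 0.12) and Klf4 (0.49 ± 0.13) moved up, and Nanog (-1.27 ± 0.12) and Prdm14 (-2.03 ± 0.54) moved down. For Prdm14 the call was lost without day 6 EPS shCtrl replicate 2 (log2 -1.76, adjusted p = 0.0578; 0.000509 to 0.0578 over 14 alternatives), and it was -4.07 without day 6 EPS shYy1 replicate 1 and -1.33 without day 6 EPS shYy1 replicate 2, from 10 reads in EPS shYy1 and 22 in EPS shCtrl cells on day 6. Esrrb reached 2.34 without day 6 EPS shCtrl replicate 2. Tbx3 was not called (log2 -0.13) but was called at -0.73 without EPS shCtrl replicate 1 (adjusted p = 4.02e-08; 4.02e-08 to 1.00). Tcl1 was not called (log2 0.34 from at most 1 read a group on day 6, and -1.91 to 1.07 with 1 library left out).

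The overexpression effect was called higher on day 6 than undifferentiated for 1 member and lower for 6, where 17.7% and 19.9% of genes were called. Klf5 moved up (log2 0.87 ± 0.14), and Klf2 (-2.29 ± 0.18), Esrrb (-1.84 ± 0.21), Tfcp2l1 (-1.32 ± 0.13), Nanog (-1.01 ± 0.11), Klf4 (-0.62 ± 0.12) and Tcl1 moved down. Klf2 was called higher with overexpression in undifferentiated cells and lower on day 6. Klf5 was lower with the hairpin and with the overexpression in undifferentiated cells, and higher with each on day 6. The Tcl1 call was lost without day 6 ES oeYy1 replicate 2 (adjusted p = 0.0678; 2.16e-05 to 0.0678). Tbx3 (log2 0.18) and Prdm14 (0.90) were not called.

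Other genes of the naive state were read from lists beside the members. Of 12 further naive markers, 2 were called higher and 6 lower in EPS than in ES cells, 5 higher and 3 lower with the hairpin, and 3 higher and 4 lower with the overexpression. Fgf4, the growth factor that drives exit from naive pluripotency, was lower in EPS cells (log2 -0.67), as were the adhesion genes Jam2 (-1.23) and Pecam1 (-0.77) and the dioxygenase gene Tet2 (-1.54). With the hairpin Fgf4 (log2 1.18), Dppa5a (1.17) and Pecam1 (0.90) rose and the homeobox gene Gbx2 (-1.99) fell. With the overexpression Dppa5a (-1.32) and Pecam1 (-0.89) fell, and Tet2 (1.09) and Gbx2 (1.20) rose. On day 6 the hairpin had 3 of these 12 higher and 3 lower, with Dppa5a at log2 3.06. The overexpression had 1 higher and 10 lower, with Tdh, the threonine dehydrogenase gene, at log2 -4.08, Dppa5a at -2.47, Fgf4 at -2.02 and Zfp42, the REX1 gene, at -1.66. The medians of the 12 in these 5 comparisons were -0.31, 0.32, 0.25, -0.10 and -1.72, against medians between -0.013 and 0.012 over all genes.

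Of the core factors, Pou5f1 rose with the overexpression (log2 0.51) and was called neither with the hairpin nor in EPS over ES cells. Sox2 was lower in EPS than in ES cells (log2 -0.41) and rose with the hairpin (0.32) and the overexpression (0.31). Sall4 fell with the hairpin (log2 -0.63).

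Upstream lists covered ERK, LIF and Wnt signalling. Of 9 genes of FGF receptors and ERK feedback and response, 7 were called higher and 1 lower in EPS than in ES cells, 1 higher and 6 lower with the hairpin, and 6 higher with the overexpression, with medians of log2 0.93, -1.43 and 0.69. The feedback inhibitor Spry4 was 89.7 ± 23.3 CPM in EPS and 6.15 ± 1.07 CPM in ES cells, 15.8 ± 0.899 CPM in EPS shYy1 and 95.6 ± 2.07 CPM in EPS shCtrl cells, and 15.4 ± 1.76 CPM in ES oeYy1 and 1.57 ± 0.1803 CPM in ES oeCtrl cells (SD, n = 3 each for the parents and 2 each for the lines). Of 7 LIF-STAT3 genes, 1 was called lower in EPS cells, 2 higher and 2 lower with the hairpin, and 1 higher and 2 lower with the overexpression. The STAT3 target Pim1 rose with the hairpin (log2 1.52) and fell with the overexpression (-0.85), and Stat3 itself fell with the hairpin (-0.44). Of 7 Wnt and TCF genes, 3 rose and 3 fell in EPS cells, 1 and 2 with the hairpin, and 2 were higher with the overexpression. The repressor gene Tcf7l1 was lower in EPS cells (log2 -0.83), higher with the hairpin (0.45) and higher with the overexpression (0.60).

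Of 11 formative and primed genes, 8 were called higher and 2 lower in EPS than in ES cells, 1 higher and 6 lower with the hairpin, and 7 higher and 1 lower with the overexpression, with medians of log2 1.63, -1.18 and 0.86. Dnmt3l, a cofactor of de novo DNA methylation, fell with the hairpin (log2 -2.73) and rose with the overexpression (6.42). The control line ES oeCtrl held Dnmt3l at 2.61 ± 0.0955 CPM, against 225 ± 9.60 CPM in ES oeYy1 cells (SD, n = 2 each). Of the 14 further KLF genes, 13 were tested in undifferentiated cells, with 3 higher and 4 lower in EPS cells, 3 higher and 2 lower with the hairpin, and 2 higher and 2 lower with the overexpression. Klf17, a KLF gene of early embryos, was lower with the hairpin (log2 -3.75) and higher with the overexpression (3.78), at 4 and 59 reads over the EPS shYy1 and the EPS shCtrl libraries and 112 and 8 reads over the ES oeYy1 and the ES oeCtrl libraries. Klf10 rose with the hairpin (0.61) and fell with the overexpression (-0.60). Of the 14 KLF genes, 12 were tested on day 6, with 6 called higher and 2 lower with the hairpin. Klf7 (log2 1.60), Klf9 (0.90), Klf6 (0.80) and Klf3 (0.67) were among those higher. Of 12 paralogs and partners of members 7 were tested in undifferentiated cells, with 3 called higher with the hairpin and 3 lower with the overexpression. Tfcp2, the paralog of Tfcp2l1, rose with the hairpin (log2 0.71) and fell with the overexpression (-0.64). The Tcl1b genes, paralogs of Tcl1, averaged at most 0.733 CPM in any group, and the pseudogene Nanog-ps1 had at most 6 reads in any library. How the counting split reads between such related sequences and the members is not stated.

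The genes nearest to each member in pattern were taken over the 10 group means of log2(CPM + 1), among 10612 genes averaging at least 5 CPM. Symbols made of Gm and a number, or holding Rik or -ps, were left out of these 10612. Nanog ran closest with Fgf4, Morc1 and Cbs (Pearson r of 0.9916 to 0.9951), Esrrb with Zfp42, Sh3gl2 and Tdh (0.9939 to 0.9943), and Tcl1 with Alg13, Nfatc2ip and Morc1 (0.9935 to 0.9945). Tfcp2l1 ran with Hsp90aa1, Jam2 and Trap1a, Klf2 with Tex19.1, Rpp25 and Zfp654, Klf4 with Chchd10, Mybl2 and Zfp534, and Prdm14 with Acacb, Zswim1 and Gls2, at r between 0.9846 and 0.9965. Klf5 (Naa25, Ide and Mief1) and Tbx3 (Rif1, Pxmp2 and Svip), which kept most on day 6, had less close neighbours, at r between 0.9517 and 0.9765. All means share the fall between the stages, so these r are high for many genes and carry no test, and no member was among the 3 nearest of another.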

How the data were processed

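RNA-seq of 22 samples in 10 groups was deposited by the authors as raw counts of reads per gene symbol, 1 table a sample, with the summary lines of the counting step at the end. The submitters' processing notes name Bowtie2 2.3.2 and CASAVA, and the counter, its strand setting and the annotation are not given in the sources used here. Summary lines stayed out of library sizes: 5.61 to 8.62% of reads had no feature, 3.70 to 5.32% were ambiguous and 5.45 to 6.66% were not unique. The other 41 samples were not analysed here. CPM is a count over all gene counts of its library and is not TMM-scaled, so a ratio of CPM can differ from a fitted fold change (TMM factors 0.906 to 1.09). For small fold changes this matters. On day 6 Yy1 averaged 112 CPM in EPS shYy1 and 126 CPM in EPS shCtrl cells, at a fitted log2 of -0.033. Tbx3 averaged 46.7 and 41.9 CPM in the same groups, at a fitted log2 of 0.29.

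Tests used edgeR 4.0.16 in R 4.3.3 (limma 3.58.1): TMM, filterByExpr and the robust quasi-likelihood fit, with Benjamini-Hochberg adjustment over all genes tested and a threshold of 0.05. One fit held the 14 undifferentiated libraries, one the 8 day 6 libraries, and one the 16 libraries of the construct lines at both stages. The fit was tested on simulated data. The alternatives were RLE factors, no filter on low counts, DESeq2 1.42.0, only the libraries compared, a replicate block, no X- or Y-linked genes, and each library left out. The 2 comparisons of control lines with parents were added after the levels had been seen, as was a crossed block. In EPS against ES cells the deviations of same-numbered libraries correlated at 0.18, 0.23 and 0.45. Replicate 3 differed most from the others in both groups. Its chi-square per gene was 25.6 and 28.9 in EPS and 24.0 and 34.3 in ES cells, against 5.92 and 6.80 between replicates 1 and 2. No label pairs these samples, and with replicate 3 apart in both groups the correlations cannot decide whether the numbers do. All 9 members are reported, and genes of other lists are named by their adjusted p. The members and lists were chosen with earlier results of these data known. Sequences are from RefSeq, GRCm38.p6.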

Additional observations from a re-analysis of the deposited data

Results flagged for a closer look

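The effect of the hairpin differed between day 6 and undifferentiated cells, by the interaction term of the edgeR fit, for 7 members. The difference of the log2 fold changes, day 6 minus undifferentiated, was -1.27 for Nanog, 1.93 for Klf2, 0.49 for Klf4, 1.47 for Klf5, 1.33 for Esrrb, 0.74 for Tfcp2l1 and -2.03 for Prdm14. The Nanog value sets a hairpin effect of log2 -0.21 on day 6, not called, against 1.04 in undifferentiated cells. By the fit, Yy1 itself did not differ between the hairpin line and its control beyond the spread on day 6 (log2 -0.033).

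The effect of the overexpression differed between the stages for 7 members as well, at -1.01 for Nanog, -2.29 for Klf2, -0.62 for Klf4, 0.87 for Klf5, -1.84 for Esrrb, -1.32 for Tfcp2l1 and -4.13 for Tcl1. The Tcl1 value rests on 1 read in day 6 ES oeYy1 and 24 reads in day 6 ES oeCtrl cells. Klf2 had an overexpression effect of log2 -1.44 on day 6 and 0.82 in undifferentiated cells, both called.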

How the results depend on the processing

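Of 1451 values of members under an alternative, 1399 kept their side of the threshold, among them 18 uncalled values that changed sign, 35 lost a call, 16 gained one and 1 reversed: Tbx3 in EPS shCtrl against ES oeCtrl cells was -0.53 without EPS shCtrl replicate 1 and 0.45 without EPS shCtrl replicate 2. Genes called with the overexpression in undifferentiated cells numbered 8149 when only the libraries compared were fitted, against 5255 in the fit of all groups, and 3065 to 3614 with 1 library left out. Members called there numbered 2 to 3, against 4. With the hairpin 2571 to 4853 genes were called with 1 library left out, against 4682. The cause was not tested. With the replicate number as a block, EPS against ES cells had 6175 genes called against 5033, and the block changed no member's call there. In no comparison do the labels pair libraries beyond the number. Elsewhere the block moved the members called from 6 to 7 with the hairpin in undifferentiated cells (Tbx3 added). With the overexpression on day 6 the block moved them from 7 to 8 (Klf4 added). It added Nanog and removed Klf4 in EPS shCtrl against EPS cells. Depth limits Tcl1 and Prdm14 on day 6, with at most 30 reads a group.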
